A study of Solanum lycopersicum var. cerasiforme with 6 samples.

Results

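The genes described here are the late embryogenesis abundant (LEA), dehydrin and desiccation genes of cherry tomato fruit, with the cold-regulated, drought and senescence-associated genes that carry related annotations. Members were the entries of the table of all loci that hold a single gene and whose annotation text contains "late embryogenesis", "dehydrin", "dessication", "desiccation", "cold-regulated", "drought" or "senescence-associated", leaving out genes that also stand in the smaller tables of transcription factors, ABA-related genes and ethylene-related genes. The text matched 81 entries, 4 of which merge several genes and were left out, and 0 were in the smaller tables. This gave 77 entries from 68 genes, of 24556 single-gene entries (21168 genes) and 31571 entries in all. By annotation they fell into 25 entries of LEA hydroxyproline-rich glycoproteins, 24 entries of other LEA proteins, 4 dehydrins, 1 desiccation-induced protein, 3 cold-regulated proteins, 10 drought entries and 10 senescence-associated genes. They lay on 11 chromosomes, and 14 had a mean of at least 100 FPKM.

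LEA proteins are small, very hydrophilic proteins that accumulate in the maturing seed as it dries and in vegetative tissue under water deficit, where they are thought to protect membranes and enzymes. Many are induced by abscisic acid (ABA), acting through receptors, type 2C protein phosphatases, SnRK2 kinases and bZIP factors that bind ABA-responsive promoter elements. Dehydrins are a LEA group with lysine-rich repeats. The LEA hydroxyproline-rich glycoproteins are named for a domain shared with LEA proteins, but in Arabidopsis the family also holds membrane proteins of pathogen defence. Gene names are those of the deposited annotation, which mostly takes them from Arabidopsis, and the roles given below are known from Arabidopsis unless stated.

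All fruits were mature green cherry tomatoes (Solanum lycopersicum var. cerasiforme, 'XinTaiyang'). ABA fruits were injected with 25 µL of 10 mM ABA, NDGA fruits with 25 µL of 1 mM nordihydroguaiaretic acid, an inhibitor of ABA biosynthesis, and CK fruits with 25 µL of distilled water. All were kept in the dark and sampled at day 9, which the study places around the breaker stage on average and at which fruits of the groups differed in ripening. The methods also state that pericarp was taken and that seeds were discarded. Each group had 2 libraries, each from pooled fruits of 1 of 2 harvests, and the deposited table gives the mean of both as 1 FPKM value (fragments mapped to a gene, scaled to its transcript length and to all mapped fragments) per entry and group. No value has a replicate error, no test between groups could be made, and every difference below is a description of these 3 values. The number of fragments behind each FPKM is unknown.

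Markers of the seed were abundant in all 3 groups, against the description of the tissue. Oleosins and caleosins, proteins of seed oil bodies, summed to 1891 FPKM in ABA, 4805 FPKM in NDGA and 2021 FPKM in CK over 17 entries, of which 1 was listed at 0 in ABA, 0 in NDGA and 1 in CK. The 6 entries of named seed storage albumins and cruciferin summed to 1256 FPKM in ABA, 8010 FPKM in NDGA and 3649 FPKM in CK, with 2 of them listed at 0 in ABA, 0 in NDGA and 1 in CK. Seed storage albumin 5 (Solyc08g080490.2) had 961 FPKM in ABA, 5783 FPKM in NDGA and 2557 FPKM in CK. The whole seed list of 75 entries, of which 47 belong to the bifunctional inhibitor, lipid-transfer protein and seed storage 2S albumin superfamily that is not confined to seeds, summed to 6831 FPKM in ABA, 40578 FPKM in NDGA and 11717 FPKM in CK, with 16 entries listed at 0 in ABA, 10 in NDGA and 15 in CK. That superfamily held 27486 FPKM of the NDGA sum, 11530 FPKM of it in 1 entry of Solyc06g073660.2 that was listed at 0 in ABA and CK. The other entry of this gene had 0.184 FPKM in ABA, 0.859 FPKM in NDGA and 0.375 FPKM in CK. Without the superfamily, the other 28 entries summed to 3426 FPKM in ABA, 13092 FPKM in NDGA and 5852 FPKM in CK. Over all single-gene entries the sums were 4.87e+06 FPKM in ABA, 1.20e+07 FPKM in NDGA and 5.34e+06 FPKM in CK. A larger sum in NDGA was thus not particular to the seed list. Among seed-list entries with a mean of at least 1 FPKM, 30 of 47 were at least 2-fold higher in NDGA than in CK and 0 lower, beside 7.41% and 3.11% of all single-gene entries. For ABA over CK 6 of 46 were at least 2-fold higher and 16 lower, beside 4.72% and 10.1%. Without the superfamily, 17 of 25 were higher and 0 lower in NDGA, and 2 of 24 higher and 6 lower in ABA. Fruit genes were present as well: phytoene synthase (Solyc03g031860.2), the first enzyme of the carotenoid pathway, had 5451 FPKM in ABA, 1339 FPKM in NDGA and 2795 FPKM in CK. Another gene of that name, Solyc02g081330.2, had the opposite order at a far lower level, with 6.30 FPKM in ABA, 11.3 FPKM in NDGA and 8.32 FPKM in CK. The 12 light harvesting genes of the photosystems summed to 33.6 FPKM in ABA, 458 FPKM in NDGA and 308 FPKM in CK, and all 9 that passed were at least 2-fold lower in ABA than in CK. LEA proteins accumulate in seeds and, under water deficit, also in vegetative tissue. The part of seed RNA or of ripening stage in the results below was not tested.

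**Figure D1:**
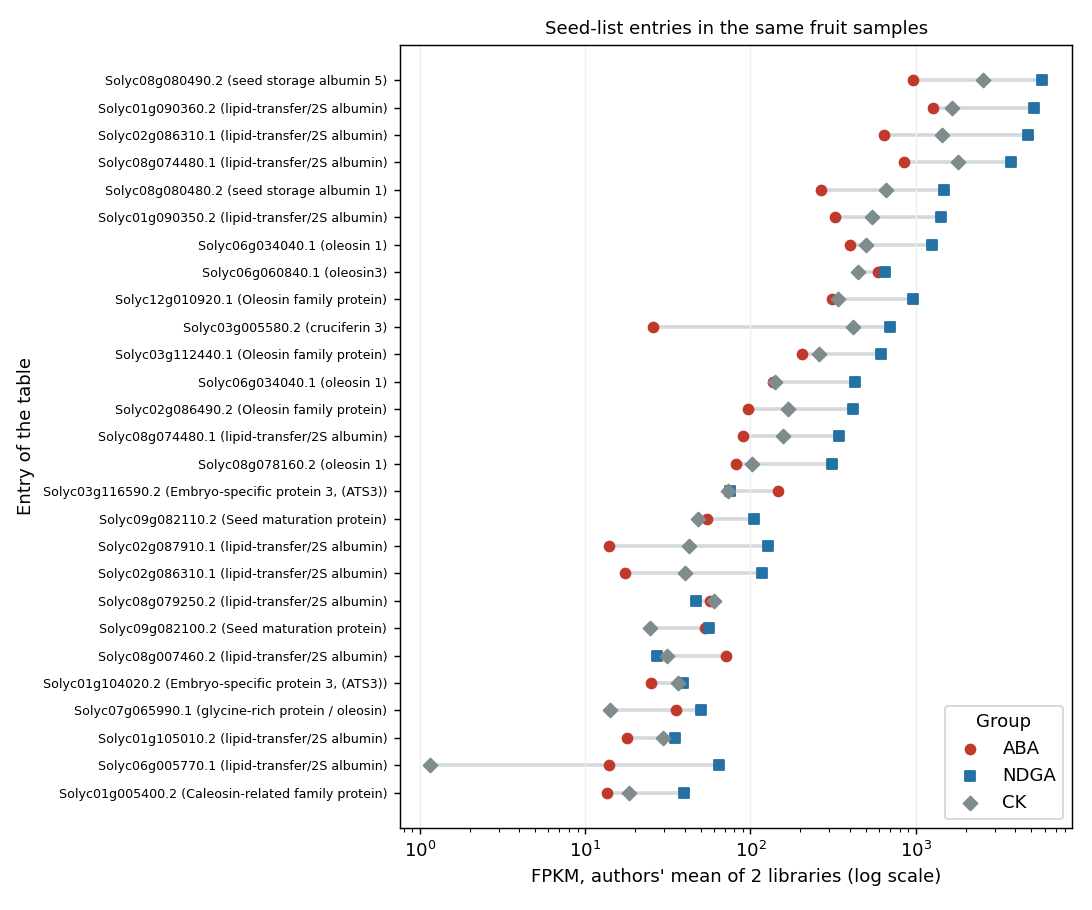
FPKM of 27 seed-list entries with a mean of at least 20 FPKM and no value of 0, on a log axis, with 1 point per group (ABA red circles, NDGA blue squares, CK grey diamonds). NDGA was the highest group in 24 of the 27 entries and ABA the lowest in 19.

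Of the 77 entries, 60 (from 52 genes) had a mean over the 3 groups of at least 1 FPKM and were used for counts and medians. The other 17 were 9 hydroxyproline-rich glycoproteins, 2 other LEA proteins, 1 dehydrin, 1 drought entry and 4 senescence-associated genes. A value of 0 in some group was listed for 13 members, with 6 in ABA, 5 in NDGA and 7 in CK, and no ratio was formed against a 0. Such a 0 need not mean absence, because 33 of the 212 single-gene entries with at least 1000 FPKM in some group were listed at 0 in another. The members that passed had a median mean level of 24.6 FPKM, against 12.4 FPKM for all single-gene entries that passed.

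With ABA over CK, 9 of 60 entries were at least 2-fold higher, beside 4.72% of all single-gene entries, and 6 were at least 2-fold lower, beside 10.1%. The median log2 ratio of the members was 0.31, against 0.02 for all entries. Of the members 42 (70%) were higher and 18 lower, beside 52.1% higher over all single-gene entries. Of the 9 entries at least 2-fold higher, 8 were other LEA proteins. In that class 21 of 22 entries were higher in ABA, beside the 52.1% over all entries, with a median log2 ratio of 0.58. Some of these are repeat entries of 1 gene, and with 1 entry per gene, the more abundant, 5 of 52 were at least 2-fold higher, beside 3.87% of all genes taken in the same way, and 5 lower, beside 10.2%. All 3 cold-regulated entries were also higher, none by 2-fold. The hydroxyproline-rich glycoproteins were divided, with 7 of 16 higher, 9 lower and a median log2 ratio of -0.08. Beside these, the oleosins and caleosins had a median log2 ratio of -0.32 and the named storage proteins one of -2.61 over 4 entries, both lower in ABA, whereas both measured seed maturation protein entries were higher. Here as in all comparisons of tissue RNA, fewer cells of a type and less RNA per cell cannot be told apart.

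With NDGA over CK, 20 of 58 entries were at least 2-fold higher, beside 7.41% of all single-gene entries, and 0 were at least 2-fold lower, beside 3.11%. The median log2 ratio was 0.28 against 0.03. Of the members 39 (67.2%) were higher and 19 lower, beside 52.9% higher over all single-gene entries. Left out of these counts were 2 members that passed but were listed at 0 in NDGA, Solyc09g075210.2 and Solyc11g073140.1. They had 21708 FPKM and 1.34 FPKM in CK. Other LEA proteins gave 13 of the 20 entries, with a median log2 ratio of 1.11 over 21 entries, and genes annotated as dehydrins gave 2 of 3. The hydroxyproline-rich glycoproteins gave 1 of 16, or 6.25%, near the share over all entries. The members outside the dehydrin, other LEA and desiccation classes had a median log2 ratio of -0.01 over 33 entries. Over the same pair of groups 12 of 16 oleosins and caleosins were at least 2-fold higher in NDGA, with a median log2 ratio of 1.31. Without the filter on low values, 23 of 66 members were at least 2-fold higher in NDGA than in CK and 3 lower, beside 12% higher and 4.95% lower over all single-gene entries.

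With ABA over NDGA, 6 of 58 entries were at least 2-fold higher, beside 6.98% of all single-gene entries, and 15 were at least 2-fold lower, beside 16.3%. The median log2 ratio was -0.41, against -0.02 for all entries. Of the 58, 34 (58.6%) were lower in ABA, beside 51.1% of all single-gene entries. The 3 comparisons share their values in pairs and are not independent of each other. NDGA held the highest value in 51.7% of the 60 entries, ABA in 40% and CK in 8.33%, while over all single-gene entries NDGA was highest in 40.6%, ABA in 41.0% and CK in 18.4%. The 5 members highest in CK were 2 drought entries, both copies of senescence-associated gene 21 and 1 hydroxyproline-rich glycoprotein.

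**Figure D2:**
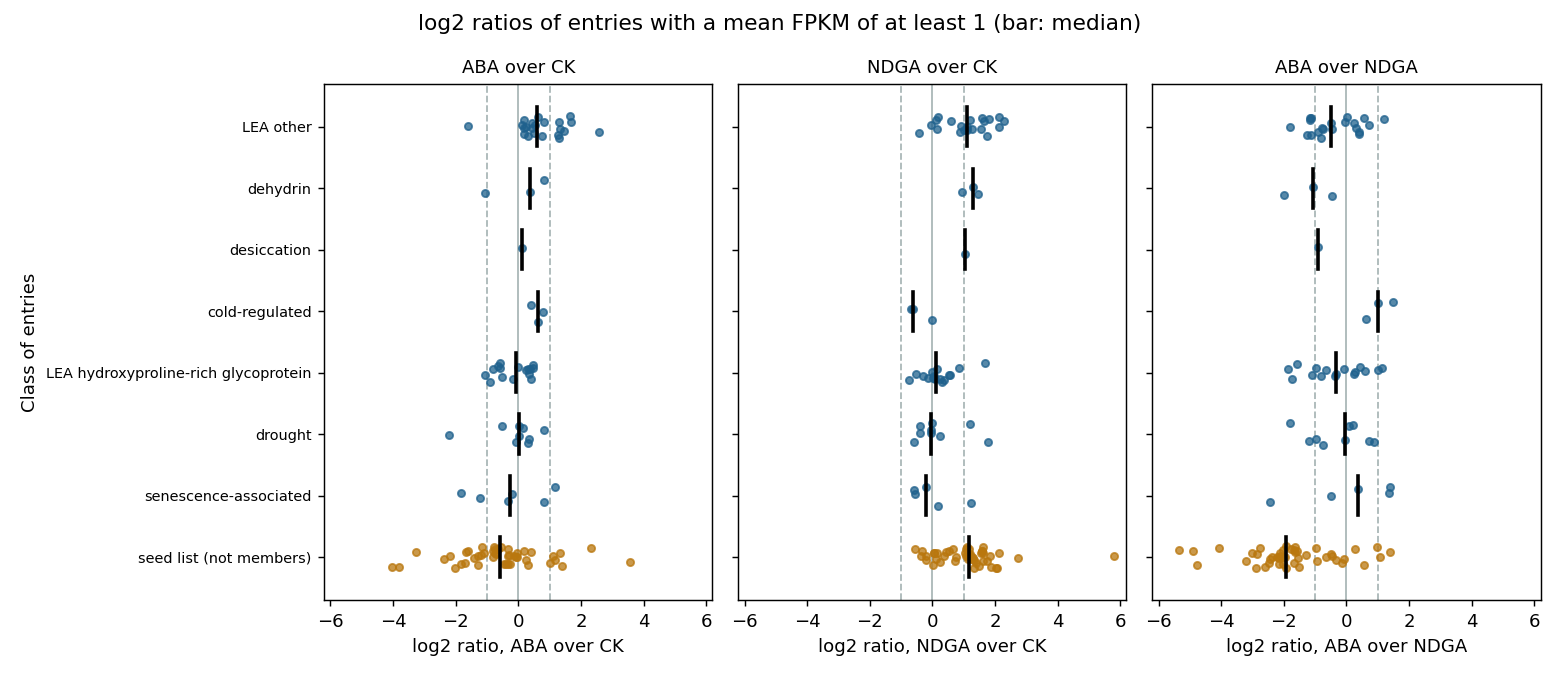
log2 ratios of the members with a mean of at least 1 FPKM by annotation class (blue points, 1 per entry), with the seed list in orange below, for ABA over CK, NDGA over CK and ABA over NDGA. Black bars are medians and dashed lines mark 2-fold. Other LEA proteins had medians of 0.58, 1.11 and -0.48 from left to right, and the seed list had medians of -0.60, 1.18 and -1.92.

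Among the other LEA proteins the most abundant was Solyc10g078770.1 (Late Embryogenesis Abundant 4-5; SL2.40 chromosome 10, 59806305 to 59807416), of the group of LEA proteins that turn helical on drying. It had 652 FPKM in ABA, 1469 FPKM in NDGA and 422 FPKM in CK, so that it was 1.54-fold higher in ABA and 3.48-fold higher in NDGA than in CK. Its neighbour on the chromosome, Solyc10g078780.1 (59812337 to 59813683), carries the same annotation and had 19.4 FPKM in ABA, 33.0 FPKM in NDGA and 14.3 FPKM in CK in its larger entry. In their larger entries both neighbours were thus highest in NDGA and lowest in CK at levels far apart. The other LEA 4-5 gene, Solyc03g058330.2 on chromosome 3, had the same order with 9.87 FPKM in ABA, 21.4 FPKM in NDGA and 7.28 FPKM in CK.

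The LEA group 1 gene Solyc06g061110.1 (chromosome 6, 35510747 to 35511854) had 22.4 FPKM in ABA, 41.9 FPKM in NDGA and 19.6 FPKM in CK. It and both LEA 4-5 neighbours are the only members with the gene ontology term embryo development, though 54 of the 77 members carry no term. All 6 entries of these 3 genes were at least 2-fold higher in NDGA than in CK, beside 7.41% of all single-gene entries. The same held for 13 of 21 entries of the other LEA proteins as a class, a count that includes these 6. The median log2 ratio of the 6 entries was 1.96 for NDGA over CK and 0.97 for ABA over CK. In ABA all 6 were higher than in CK, 3 of them at least 2-fold, beside 4.72% of all single-gene entries. The 3 seed maturation protein entries, set beside them, summed to 108 FPKM in ABA, 162 FPKM in NDGA and 72.9 FPKM in CK. The sum over all single-gene entries was also largest in NDGA.

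A further set of LEA genes was highest in ABA. Solyc01g079590.2, an LEA family protein, had 318 FPKM in ABA, 138 FPKM in NDGA and 186 FPKM in CK, and was 2.3-fold higher in ABA than in NDGA. It was 1 of 2 entries lower in NDGA than in CK among the 21 of its class that passed with a value above 0 in both. Solyc07g053360.2 (LEA domain-containing protein, chromosome 7, 59144378 to 59146118) had 100.4 FPKM in ABA, 76.4 FPKM in NDGA and 40.3 FPKM in CK, a 2.49-fold higher value in ABA than in CK. Solyc12g098900.1, an LEA family protein on chromosome 12, had 55.0 FPKM in ABA, 41.3 FPKM in NDGA and 22.4 FPKM in CK. In both genes the treated groups stood above CK. Solyc11g022530.1 stood apart in ABA alone, with 52.1 FPKM in ABA, 31.8 FPKM in NDGA and 29.5 FPKM in CK.

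Several further LEA genes were highest in NDGA. Solyc02g077970.2 had 36.3 FPKM in ABA, 79.7 FPKM in NDGA and 33.5 FPKM in CK, with ABA and CK close together. Solyc06g065050.1, an LEA domain-containing protein, had 7.39 FPKM in ABA, 10.3 FPKM in NDGA and 3.07 FPKM in CK, with CK apart from both treatments. Solyc02g085150.2 had 3.79 FPKM in ABA, 9.09 FPKM in NDGA and 3.05 FPKM in CK, though its interval overlaps an entry of another gene. Solyc03g116390.2, with 234 FPKM in ABA, 393 FPKM in NDGA and 196 FPKM in CK, was only just 2-fold higher in NDGA than in CK (2.01-fold). Its locus of 186064 bases is shared with 25 other entries, and how reads were divided among them is not given in the sources used here.

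A run of neighbouring genes on chromosome 1 held unlike profiles. The LEA protein gene Solyc01g095140.2 had 4.13 FPKM in ABA, 9.22 FPKM in NDGA and 2.95 FPKM in CK. Next to it, Solyc01g095150.2 had 133 FPKM in ABA, 129.9 FPKM in NDGA and 118 FPKM in CK, nearly level at a value many times higher. The hydroxyproline-rich member of the cluster, Solyc01g095170.2, had 13.0 FPKM in ABA, 27.9 FPKM in NDGA and 22.6 FPKM in CK, lowest in ABA. A flat profile was also found for the LEA group 2 gene Solyc08g015690.2, with 241 FPKM in ABA, 204 FPKM in NDGA and 211 FPKM in CK over a locus of 45166 bases. The remaining measured entries of the class were Solyc10g008040.2 with 3.28 FPKM in ABA, 3.39 FPKM in NDGA and 2.26 FPKM in CK, and 2 LEA-related entries. Of these, Solyc07g063490.2 was the only measured entry of the class lower in ABA than in CK, with 0.949 FPKM in ABA, 3.30 FPKM in NDGA and 2.90 FPKM in CK, and it overlaps an entry of another gene. The other, Solyc11g073140.1, had 3.67 FPKM in ABA and 1.34 FPKM in CK and was listed at 0 in NDGA.

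Genes annotated as dehydrins were highest in NDGA in all 3 entries that passed. Cold-regulated 47, a dehydrin in Arabidopsis that its annotation places in another class, was highest in ABA. Solyc01g109920.2 (dehydrin LEA; chromosome 1, 88520598 to 88521868) had 117 FPKM in ABA, 247 FPKM in NDGA and 90.8 FPKM in CK, a 2.72-fold higher value in NDGA than in CK. Solyc02g084840.2 (dehydrin xero 1; chromosome 2, 42498652 to 42499621) had 172 FPKM in ABA, 239 FPKM in NDGA and 97.9 FPKM in CK, above CK in both treatments. Solyc01g065820.1, also annotated dehydrin xero 1, had 5.29 FPKM in ABA, 21.1 FPKM in NDGA and 11.0 FPKM in CK. This dehydrin was thus 2.07-fold lower in ABA than in CK while the other two were higher, and 3.98-fold lower in ABA than in NDGA. The neighbour of Solyc02g084840.2, Solyc02g084850.2, was weak, with 1.71 FPKM in ABA, 0.299 FPKM in NDGA and a listed 0 in CK. The gene ontology term response to water was carried by 5 members, the 4 dehydrins and cold-regulated 47 below.

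The desiccation-induced protein Solyc06g075990.2, of the vicinal oxygen chelate superfamily, had 40.2 FPKM in ABA, 76.0 FPKM in NDGA and 36.9 FPKM in CK, which is 2.06-fold higher in NDGA than in CK.

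Cold-regulated genes had another order of groups, with ABA highest in all 3. Cold-regulated 47 (Solyc04g082200.2; chromosome 4, 63550864 to 63552237), a dehydrin in Arabidopsis, had 1012 FPKM in ABA, 655 FPKM in NDGA and 660 FPKM in CK. It was 1.53-fold higher in ABA than in CK and level between NDGA and CK, unlike the genes annotated as dehydrins. The 2 genes for the multispanning membrane protein cold-regulated 413-plasma membrane 2 were lowest in NDGA. Solyc01g109170.2 had 189 FPKM in ABA, 68.2 FPKM in NDGA and 109 FPKM in CK, and Solyc02g065380.2 had 117 FPKM in ABA, 57.8 FPKM in NDGA and 88.5 FPKM in CK. Both were at least 2-fold higher in ABA than in NDGA, by 2.78-fold and by 2.02-fold, the second only just so. The interval of Solyc01g109170.2 overlaps an entry of another gene.

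**Figure D3:**
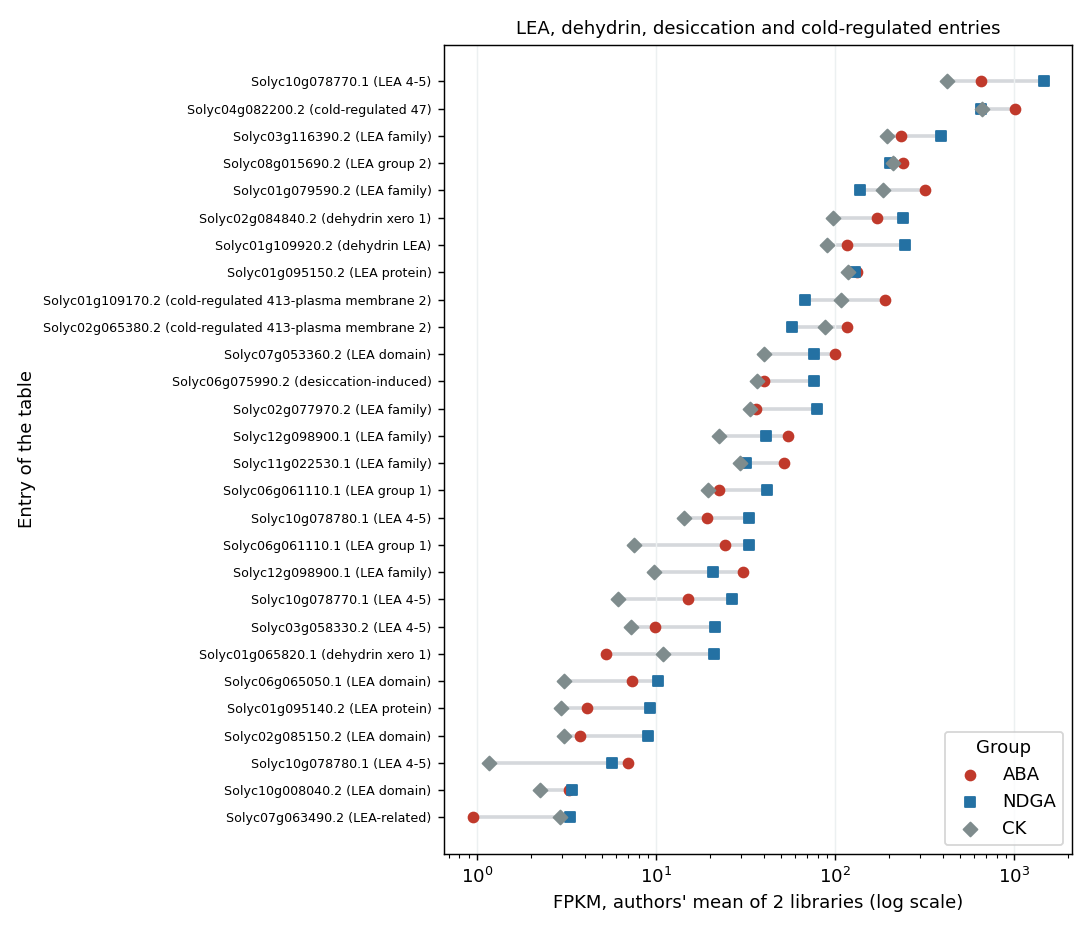
FPKM of the 28 LEA, dehydrin, desiccation and cold-regulated entries with a mean of at least 1 FPKM and no value of 0, on a log axis, ordered by mean (ABA red circles, NDGA blue squares, CK grey diamonds). NDGA was highest in 17 entries, ABA in 11 and CK in 0.

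Among LEA hydroxyproline-rich glycoproteins, most values were close between groups. The most abundant, Solyc11g068900.1 (chromosome 11, 50547361 to 50553312), had 833 FPKM in ABA, 1063 FPKM in NDGA and 1298 FPKM in CK, below CK in both treatments. Solyc01g007220.2 had 102 FPKM in ABA, 306 FPKM in NDGA and 213 FPKM in CK, and was the only 1 of the 16 to be 2-fold lower in ABA than in CK (2.09-fold). The only 1 to be 2-fold higher in NDGA than in CK was the weak Solyc10g011750.2, with 1.12 FPKM in ABA, 4.07 FPKM in NDGA and 1.26 FPKM in CK. The opposite order was found for Solyc10g081970.1, with 5.77 FPKM in ABA, 2.64 FPKM in NDGA and 4.42 FPKM in CK, and for Solyc01g006320.2, with 3.79 FPKM in ABA, 1.90 FPKM in NDGA and 2.71 FPKM in CK. For ABA over NDGA the first was past 2-fold (2.19-fold) and the second just under it (1.998-fold). Solyc01g009160.2 had 0.698 FPKM in ABA, 2.35 FPKM in NDGA and 1.32 FPKM in CK, 3.37-fold lower in ABA than in NDGA.

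The other hydroxyproline-rich members that passed stayed within 2-fold of CK in both treatments. Solyc10g005040.2 had 61.2 FPKM in ABA, 108 FPKM in NDGA and 91.5 FPKM in CK, and its order of groups, lowest in ABA and highest in NDGA, was shared by Solyc06g074050.1 with 4.27 FPKM in ABA, 6.68 FPKM in NDGA and 6.07 FPKM in CK. Solyc03g120150.2 had 66.8 FPKM in ABA, 49.8 FPKM in NDGA and 50.4 FPKM in CK, and Solyc10g074730.1 had 33.9 FPKM in ABA, 22.3 FPKM in NDGA and 24.4 FPKM in CK. These were higher in ABA with NDGA and CK close together. Solyc03g121620.1 had 23.9 FPKM in ABA, 30.3 FPKM in NDGA and 20.4 FPKM in CK. Nearly level were Solyc11g068550.1, with 27.8 FPKM in ABA, 22.9 FPKM in NDGA and 22.5 FPKM in CK, and Solyc09g031920.1, with 22.1 FPKM in ABA, 23.2 FPKM in NDGA and 22.2 FPKM in CK.

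Drought entries comprised 7 of the drought-responsive family, whose Arabidopsis members are zinc-finger proteins, and 3 other genes. Their median log2 ratios were 0.04 for ABA over CK and -0.04 for NDGA over CK over 9 entries. The drought-responsive gene Solyc03g112160.2 had 56.4 FPKM in ABA, 30.5 FPKM in NDGA and 45.3 FPKM in CK, lowest in NDGA. DROUGHT SENSITIVE 1 (Solyc02g014460.2), a WD40-repeat protein, had 1.14 FPKM in ABA, 2.59 FPKM in NDGA and 1.12 FPKM in CK. It was 2.3-fold higher in NDGA than in CK, with ABA and CK level. The chloroplastic drought-induced stress protein (Solyc04g081970.2), a thioredoxin, had 12.3 FPKM in ABA, 20.9 FPKM in NDGA and 17.5 FPKM in CK. The drought-responsive gene Solyc01g065550.2 was level, with 8.59 FPKM in ABA, 7.42 FPKM in NDGA and 7.66 FPKM in CK.

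Senescence-associated genes had no common direction. Senescence-associated gene 21, itself an LEA protein in Arabidopsis, was present as 2 genes. Solyc09g075210.2 (chromosome 9, 62481769 to 62483310) had 6165 FPKM in ABA and 21708 FPKM in CK and was listed at 0 in NDGA, so its NDGA value gives no ratio. Between the others it was 3.52-fold lower in ABA than in CK. The other copy, Solyc06g009140.2, had 383 FPKM in ABA, 296 FPKM in NDGA and 439 FPKM in CK, a far smaller spread. Senescence-associated gene 29 (Solyc09g074530.2), a sugar transporter of the SWEET family, had 12.6 FPKM in ABA, 68.8 FPKM in NDGA and 29.2 FPKM in CK. It was 2.31-fold lower in ABA and 2.35-fold higher in NDGA than in CK. That order of groups was also held by seed storage albumin 5 and by all 9 light harvesting genes that passed. Other members held it too, among them the dehydrin Solyc01g065820.1 and the hydroxyproline-rich Solyc01g007220.2. The share of this order over all single-gene entries was not taken. Senescence-associated E3 ubiquitin ligase 1 (Solyc01g068490.2), which in Arabidopsis acts on an aldehyde oxidase of ABA biosynthesis, had 7.53 FPKM in ABA, 2.91 FPKM in NDGA and 3.32 FPKM in CK. It was 2.27-fold higher in ABA than in CK, with NDGA and CK close together. Senescence-associated gene 101 (Solyc02g069400.2), a lipase-like protein of pathogen defence, was close between groups, with 7.14 FPKM in ABA, 10.1 FPKM in NDGA and 8.94 FPKM in CK. Solyc11g011170.1, a senescence-associated family protein that overlaps an entry of another gene, had 56.4 FPKM in ABA, 21.5 FPKM in NDGA and 32.2 FPKM in CK.

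The 17 members under a mean of 1 FPKM were below 1 FPKM in every group, except for the dehydrin Solyc02g084850.2 in ABA. Without the filter, 12% of all single-gene entries were at least 2-fold higher and 4.95% lower in NDGA than in CK. These counts were 2631 higher and 1086 lower of 21933, against 1337 higher and 562 lower of 18050 with the filter. The share over weak entries alone was not taken. For the members the comparison held 66 entries without the filter and 58 with it, so few weak members entered it. Where the 17 weak members had values in both groups, 3 were at least 2-fold higher and 3 lower in NDGA than in CK. The lower ones were the hydroxyproline-rich genes Solyc11g066490.1 (0.0610 FPKM in ABA, 0.292 FPKM in NDGA and 0.734 FPKM in CK) and Solyc02g092400.1, and the LEA-related gene Solyc11g073150.1 (0.0268 FPKM in ABA, 0.0666 FPKM in NDGA and 0.440 FPKM in CK). The higher ones were the hydroxyproline-rich genes Solyc02g081450.2 and Solyc08g081700.1, and Solyc02g077050.2, a gene for the cysteine protease senescence-associated gene 12, with 0.102 FPKM in ABA, 0.552 FPKM in NDGA and 0.122 FPKM in CK. At such levels the number of fragments behind a value is unknown, and these ratios enter only the count without the filter. Senescence-associated gene 12, a marker of leaf senescence, was under 1 FPKM in all 3 of its genes and all 3 groups.

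More than 1 entry at the same interval was listed for 8 genes (17 entries), and the files used here give no strand. In 4 of the other LEA genes the entries had the same direction in both comparisons with CK but different sizes. The second entry of Solyc10g078770.1 had 15.2 FPKM in ABA, 26.6 FPKM in NDGA and 6.11 FPKM in CK, 2.48-fold higher in ABA than in CK where the larger entry was 1.54-fold higher. The second entry of Solyc10g078780.1 had 6.99 FPKM in ABA, 5.67 FPKM in NDGA and 1.16 FPKM in CK, the highest ABA over CK ratio of the members that passed (6.01-fold), against 1.35-fold in its larger entry. That of Solyc06g061110.1 had 24.2 FPKM in ABA, 33.3 FPKM in NDGA and 7.56 FPKM in CK, and that of Solyc12g098900.1 had 30.7 FPKM in ABA, 21.0 FPKM in NDGA and 9.73 FPKM in CK. Of the 9 entries at least 2-fold higher in ABA than in CK, 5 therefore came from these 4 genes. The hydroxyproline-rich gene Solyc01g104580.2 also had 1 direction in each comparison, lower in ABA and higher in NDGA than in CK in both of its entries.

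In other genes the entries disagreed. The drought-responsive gene Solyc12g099390.1 had an entry of 96.5 FPKM in ABA, 187 FPKM in NDGA and 54.8 FPKM in CK, 3.42-fold higher in NDGA than in CK. Its second entry was level at 49.7 FPKM in ABA, 51.4 FPKM in NDGA and 51.9 FPKM in CK, and the last was lower in NDGA, with 2.25 FPKM in ABA, 1.37 FPKM in NDGA and 1.79 FPKM in CK. Solyc06g071780.2, of the same family, was level in its larger entry (19.1 FPKM in ABA, 18.1 FPKM in NDGA and 18.7 FPKM in CK) and 4.62-fold lower in ABA than in CK in its smaller one (0.456 FPKM in ABA, 1.60 FPKM in NDGA and 2.11 FPKM in CK). The smaller entry of Solyc11g068900.1 had 29.6 FPKM in ABA, 25.1 FPKM in NDGA and 23.6 FPKM in CK, an order of groups opposite to that of the larger. These genes carry no single direction for the gene as a whole.

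**Figure D4:**
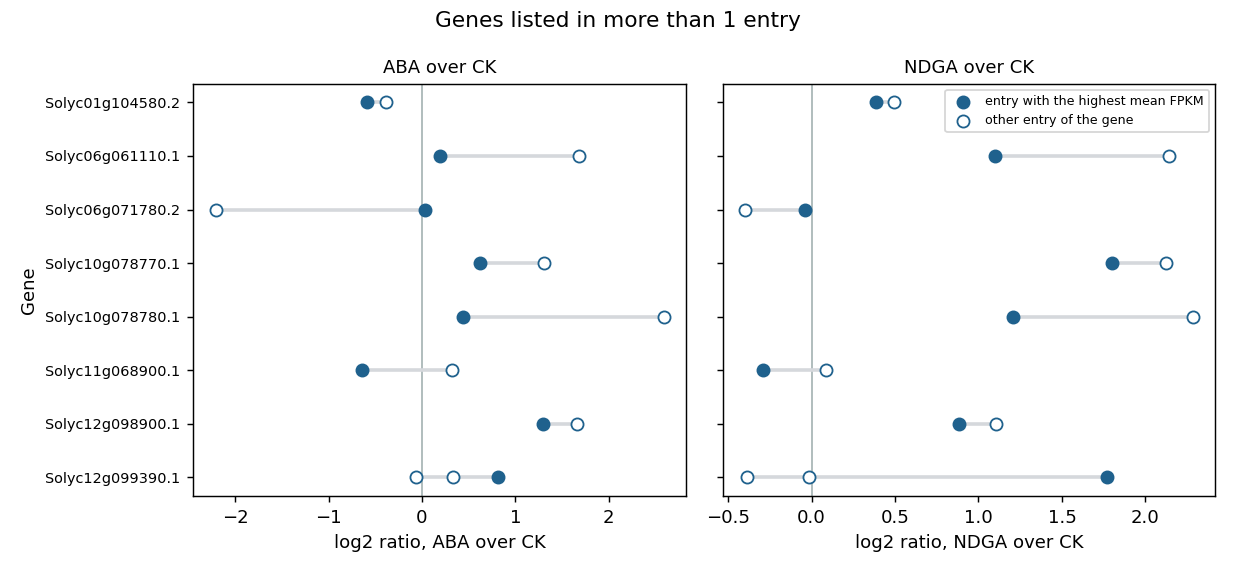
log2 ratios of ABA over CK and NDGA over CK for the 8 genes listed in more than 1 entry, with filled points for the entry of highest mean FPKM and open points for the others. Solyc10g078780.1 spanned 0.44 to 2.59 in ABA over CK, and Solyc12g099390.1 spanned -0.39 to 1.77 in NDGA over CK.

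Other genes linked to dehydration by annotation were set beside the members. They were galactinol, raffinose and trehalose enzymes, HVA22 proteins, dehydration-induced and low temperature and salt proteins, GRAM domain proteins, and the DNA-binding factors ABA-responsive element binding protein 3 and dehydration response element B1A. For ABA over CK 2 of 63 entries (3.17%) were at least 2-fold higher and 7 (11.1%) lower, near the 4.72% and 10.1% of all single-gene entries, with a median log2 ratio of 0.01. For NDGA over CK 11 of 64 (17.2%) were at least 2-fold higher and 0 lower, beside 7.41% and 3.11%, with a median log2 ratio of 0.19. Galactinol synthases, the first enzymes of raffinose sugar synthesis, were highest in NDGA in all 4 entries but did not share a direction in ABA. Solyc01g100830.1 had 34.7 FPKM in ABA, 43.6 FPKM in NDGA and 18.6 FPKM in CK, while the weaker Solyc01g079170.2, Solyc02g084980.2 and Solyc02g062590.2 were lower in ABA than in CK, with log2 ratios of -0.56, -0.78 and -0.72. HVA22 homologue E, a small membrane protein of an ABA-induced family, was also mixed. Solyc06g072680.2 had 71.1 FPKM in ABA, 120 FPKM in NDGA and 48.5 FPKM in CK, and Solyc11g010930.1 was level with 39.4 FPKM in ABA, 36.6 FPKM in NDGA and 37.3 FPKM in CK. The remaining gene of that name, Solyc03g097420.2, was weak, with 0.0556 FPKM in ABA, 1.39 FPKM in NDGA and 0.126 FPKM in CK.

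Core ABA signalling genes had 4 of 46 entries (8.70%) at least 2-fold higher and 8 (17.4%) lower for ABA over CK, beside 4.72% and 10.1% of all single-gene entries, with a median log2 ratio of -0.05. For NDGA over CK 7 of 47 (14.9%) were higher and 1 (2.13%) lower, beside 7.41% and 3.11%, with a median log2 ratio of 0.13. The lists overlap in 5 entries, all of ABA-responsive element binding protein 3, which are 6.33% of the dehydration list and 8.20% of the signalling list. The highest NDGA over CK ratio of the signalling list, a log2 ratio of 3.06, was that of 1 of these entries, Solyc10g076920.1, with 2.17 FPKM in ABA, 4.57 FPKM in NDGA and 0.547 FPKM in CK. The more abundant entry of that gene was close between groups, with 8.16 FPKM in ABA, 7.02 FPKM in NDGA and 6.10 FPKM in CK. The part of seed RNA in these values was not tested either.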

How the data were processed

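RNA from tomato fruit was sequenced in 3 groups (ABA, NDGA and CK) of 2 libraries each. According to the authors' methods and the submitters' processing notes, TopHat2 2.0.9 placed the filtered reads on genome build SL2.40 with the ITAG annotation, and Cufflinks 2.1.1 with Cuffdiff gave FPKM. The authors deposited FPKM averaged over both libraries, so each entry has 1 value per group. The smaller deposited tables also hold the authors' own fold changes and calls, which were not used.

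Ratios of FPKM were formed without a pseudocount, entries listed at 0 in either group were left out, and counts and medians used entries with a mean over the 3 groups of at least 1 FPKM. Calls are a fold of 2 alone, with no test. The code was tested on simulated data. Python 3.11.15, numpy 2.4.6, pandas 2.3.3 and matplotlib 3.10.9 were used. No minimum or a minimum of 10 on the mean FPKM, pseudocounts of 0.1 and 1 FPKM, rescaling, a log2 threshold of 1.5, genes with 1 entry and omission of classes were the alternatives.

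The members, classes and lists were chosen with earlier results of these data known. Members named are the 12 with the highest mean FPKM, the 8 highest and 8 lowest log2 ratios of each comparison (mean of at least 1 FPKM, no value of 0), the dehydrin, desiccation and cold-regulated members of at least 1 FPKM, and members sharing a locus with or next to these. Members named outside this rule, such as Solyc02g077970.2, Solyc03g058330.2 and Solyc02g014460.2, and the genes of the other lists were chosen after their values were seen. The gene table of RefSeq matched 0 of the gene identifiers, and no sequences are shown.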

Additional observations from a re-analysis of the deposited data

How the results depend on the processing

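No paired analysis was possible because the deposited table holds 1 averaged value per group, and for the same reason no library could be left out. Over 9 results and their alternatives, 77 values stayed within 1.5 times the count, or 0.25 of the log2 median, and 19 moved further, with no median turning sign. Shares over all entries under the same setting stand as "all". For NDGA over CK, members at least 2-fold lower numbered 3 of 66 without a filter (all 4.95%), against 0 of 58. With a pseudocount of 0.1 (all 3.35%) or 1 (all 2.25%) they numbered 2 of 60, both listed at 0 in NDGA. With a mean of at least 10 FPKM, 5 of 41 entries (12.2%, all 3.02%) were at least 2-fold higher for ABA over CK, against 9 of 60, and 8 of 40 (20%, all 8.98%) lower for ABA over NDGA, against 15 of 58. With only genes of 1 entry, 4 of 44 (9.09%, all 3.42%) were higher for ABA over CK and 12 of 42 (28.6%, all 6.60%) for NDGA over CK, against 20 of 58. A log2 threshold of 1.5 left 3 higher (all 2.23%) and 3 lower (all 5.81%) of 60 for ABA over CK, and of 58 it left 10 higher for NDGA over CK (all 3.41%) and 0 higher (all 3.19%) and 7 lower (all 10.2%) for ABA over NDGA. Without the hydroxyproline-rich members the NDGA over CK median was 0.90. Among alternatives chosen after seeing the data, 1 entry per gene left 5 of 52 higher for ABA over CK (all 3.87%). Dehydrin, other LEA and desiccation classes alone left 2 of 26 lower (all 10.1%) for ABA over CK. For ABA over NDGA they left 1 higher (all 6.98%) and 8 lower (all 16.3%) of 25. Their medians were 1.11 for NDGA over CK and -0.75 for ABA over NDGA. Rescaling moved none of 128 ratios of named members by more than 0.25, and a pseudocount of 1 moved 17 of 128. The cause of these shifts was not tested beyond the fewer entries that the stricter settings keep. With 1 value per group and unknown fragment counts, no difference here has an error, and ratios of entries of a few FPKM are the least certain.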
